A study of Homo sapiens with 3 samples.

Results

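Receptor tyrosine kinases outside the ERBB family were examined in 3 human cell lines. The 44 receptor genes were listed by family, and each was read from the transcript clusters that carry its symbol and no other, with the brightest cluster by mean over the arrays used where there were several. This gave values for 41 of the 44 genes, among 14410 genes measured in all. The clusters that carry PDGFRA or TYRO3 also carry symbols of other genes and were left out, and EPHB2 was not analysed here. IGF1R was the only one of the 41 with more than 1 cluster.

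HT-29 is a colon adenocarcinoma line and had been given IFN-γ (interferon gamma, a cytokine of T cells and natural killer cells) at 200 U/ml for 24 h, in medium with 10% serum. MDA-MB-436 is a breast adenocarcinoma line, grown in serum at 10% with no added growth factor named in the labels. MCF10A is a non-tumorigenic mammary epithelial line, and its medium held 5% horse serum, EGF at 20 ng/ml, insulin at 10 µg/ml, hydrocortisone at 500 ng/ml and cholera toxin at 100 ng/ml. EGF and insulin are themselves ligands of receptor tyrosine kinases. Each line had 1 exon array of total RNA, so there was no replicate spread, no test could be made, and every difference below is between 2 arrays. No HT-29 culture free of IFN-γ was analysed here, so that line, medium and cytokine cannot be told apart in its differences, and line and medium cannot be told apart in that of the mammary lines.

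Values are intensities on a linear scale. Olfactory receptor genes, 228 in number, served to set a background, at the 95th percentile of their values (29.9), and their highest value was 101. A gene was counted as different when its intensities differed at least 4-fold and the brighter one was above background. Where 1 array was below this line, the fold is a bound, computed with the background in place of the dim value, and is written as "at least". Above background lay 9595 genes in HT-29, 9908 in MDA-MB-436 and 9362 in MCF10A. Markers of the labelled cell types were checked. Of 6 measured intestinal genes, 5 were above background in HT-29, 2 in MDA-MB-436 and 1 in MCF10A. The keratin gene KRT14 was at 27.1 in HT-29, 17.6 in MDA-MB-436 and 3732 in MCF10A. Of 8 epithelial adhesion genes 8 were above background in HT-29, 1 in MDA-MB-436 and 6 in MCF10A, and of 8 mesenchymal genes 1, 8 and 7 in the same lines. MDA-MB-436, labelled as an adenocarcinoma line, thus lacked most epithelial markers, with the E-cadherin gene CDH1 under background at 10.3. HT-29 was at least 4-fold brighter than either mammary line for all 8 measured IFN-γ response genes.

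Receptor tyrosine kinases are single-pass membrane proteins that bind a ligand outside the cell, come together in pairs and phosphorylate each other on tyrosines inside it. Adaptor proteins such as GRB2 and SHC1 dock on these tyrosines and pass the signal on, among others to RAS. Signals from the receptors also reach phosphoinositide 3-kinase and phospholipase C. Epithelial cells are known for MET, EPHA2 and DDR1, mesenchymal cells for AXL, DDR2 and the PDGF receptors, endothelium for the VEGF and TIE receptors, and blood cells for KIT, FLT3 and CSF1R.

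Of the 41 receptor genes, 16 were above background in all 3 lines, 10 in some lines and 15 in none. For all genes this split was counted only where a sequence window at the gene start was found, as described below. Of 11523 such genes, 7133 were above background in all lines, 1615 in some and 2775 in none. The receptor genes among them numbered 16, 8 and 15. By line, 20 were above background in HT-29 (48.8%), 25 in MDA-MB-436 (61%) and 18 in MCF10A (43.9%), against 66.6%, 68.8% and 65% of all genes. After quantile normalization the counts were 20, 22 and 21 in the same lines, so that the distance between lines depended on the scaling. EPHA4, EPHA7, ROR2 and NTRK2 were above background in MDA-MB-436 alone, and ROS1 in MCF10A alone. HT-29 had no receptor gene of its own in this sense. EPHA7 at 32.8 and NTRK2 at 31 were just above background, and ROR2 was at 49.2. Of the genes above background in a single line, only EPHA4 and ROS1 passed the highest olfactory receptor value. The share of all genes above background in a single line was not computed. A stricter line, the highest olfactory receptor value of 101, was passed by 13 of the genes in HT-29, 12 in MDA-MB-436 and 13 in MCF10A. Of all genes, 46.9%, 47.2% and 46.9% passed it in these lines. It was passed by 8 of the receptor genes in all 3 lines, and the share of all genes that did so was not computed. In these lysates, fewer cells with a transcript and less transcript per cell cannot be told apart.

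**Figure D1:**
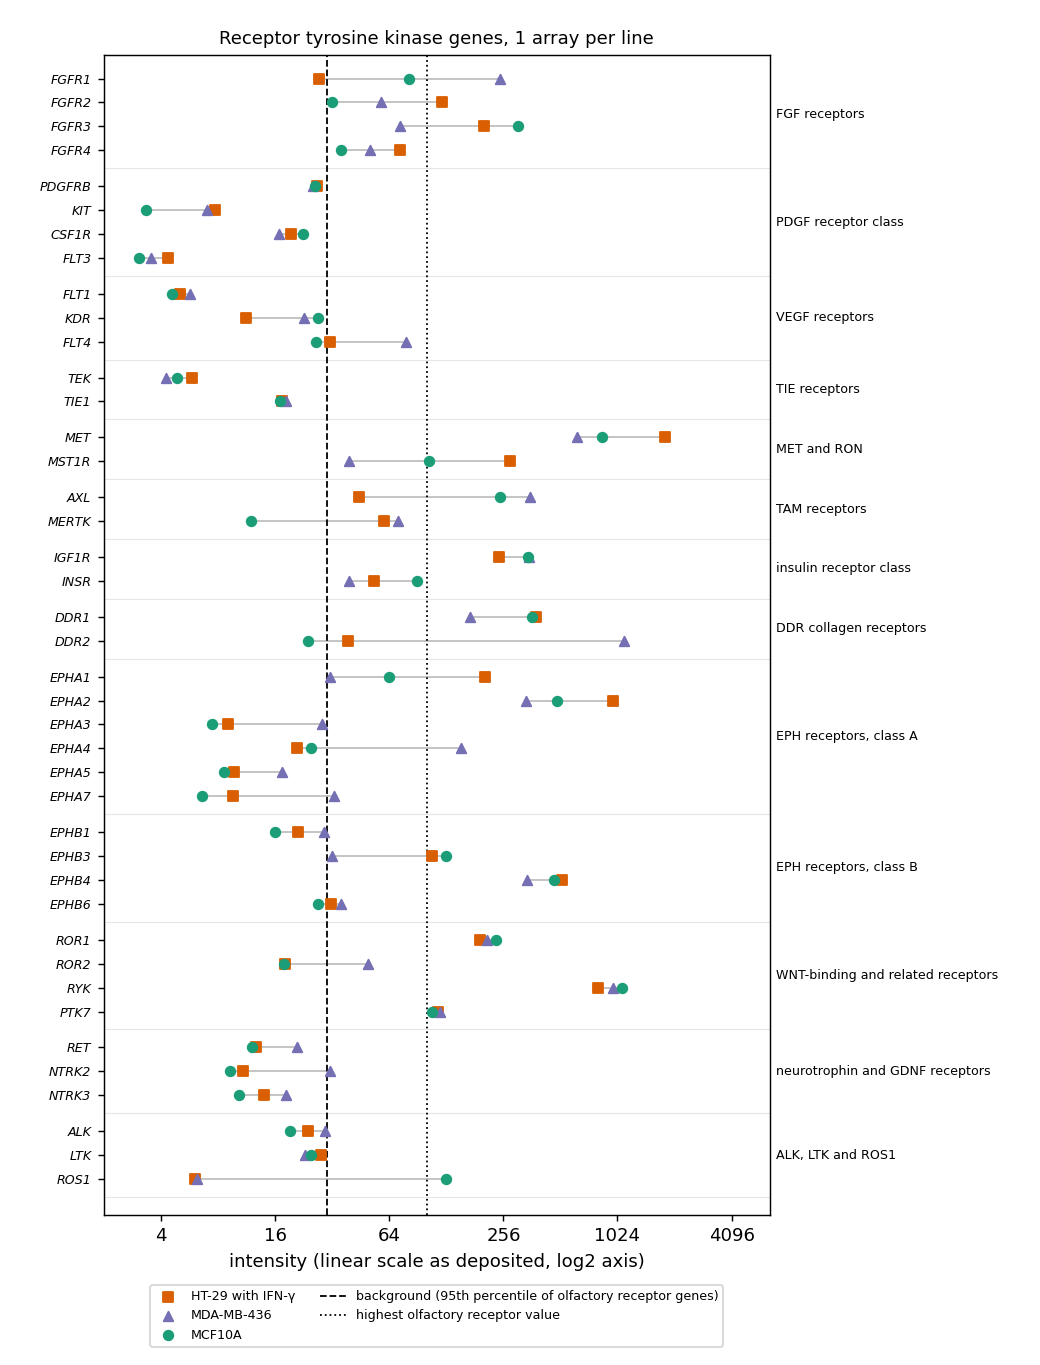
Intensity of the 41 receptor genes (log2 axis, linear values as deposited), grouped by family, with 1 point per line: squares for HT-29 with IFN-γ, triangles for MDA-MB-436 and circles for MCF10A. The dashed line is the background of 29.9 and the dotted line the highest olfactory receptor value of 101; DDR2 stands at 1103 in MDA-MB-436 and ROS1 at 128 in MCF10A, away from their other points, while the points of RYK, ROR1 and PTK7 lie close together.

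The sequence around the gene start was looked at as a feature that the choice of genes did not use. RefSeq windows of 300 bases on GRCh38.p14, from 250 before a start to 50 after it, were found for 39 of the 41 genes, with up to 8 windows per gene. A window was called CpG-rich when at least 50% of its bases were C or G and the pair CG, which reads the same on both strands, occurred at 0.6 or more of the frequency that its C and G content gives. All 16 receptor genes above background in every line had such a window, as did 5 of 8 above it in some lines and 10 of 15 above it in none. Among all 11523 measured genes with a window, the shares for the same 3 patterns were 88.9%, 62.8% and 35.3%. The receptor genes under background thus often had CpG-rich starts, among them those of KIT with 38 CG pairs, FLT3 with 34 and FLT1 with 33. The 3 genes without such a window that were above background in some lines were DDR2, ROS1 and EPHB6. For FGFR1 and FLT4, also above background in some lines, no window of any kind was found.

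**Figure D2:**
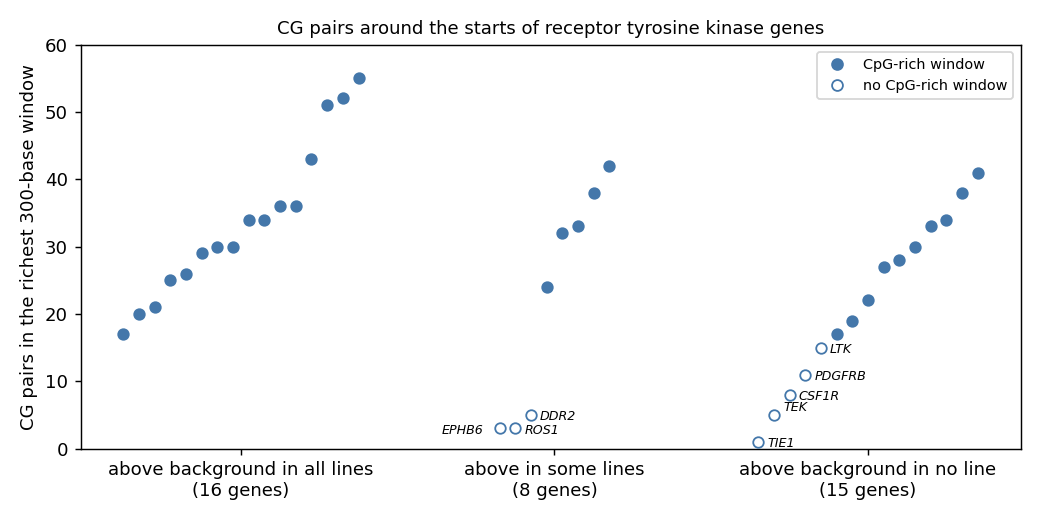
Number of CG pairs in the window richest in them (300 bases around a start) for the 39 receptor genes with a window, in 3 columns by the number of lines above background. Filled points have a CpG-rich window and open, named points have none; the 16 genes of the left column are all filled and hold 17 to 55 pairs, whereas DDR2 with 5, ROS1 with 3 and EPHB6 with 3 lie at the bottom of the middle column.

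Windows of 4 genes are printed to show starts rich and poor in CG pairs. MET and RYK were above background in every line, and DDR2 and ROS1 were bright in 1 line. DDR2 and ROS1 do not stand for all such genes. EPHA4 with 33 pairs and ROR2 with 42 were above background in 1 line and had a CpG-rich window. CG pairs are in capitals and all else is in lower case. MET lies on the plus strand at chr7:116671946-116672245 with 30 pairs, and RYK on the minus strand at chr3:134250810-134251109 with 43. For DDR2, the window richest in CG of its 3 lies on the plus strand at chr1:162631725-162632024 with 5 pairs, and ROS1 lies on the minus strand at chr6:117425893-117426192 with 3. The DDR2 window also holds the letters TATAAA at position 64 from its 5′ end, a motif found on either strand in 11.5% of all 35116 windows. These are descriptions of the letters, and no factor or mark was measured.
MET: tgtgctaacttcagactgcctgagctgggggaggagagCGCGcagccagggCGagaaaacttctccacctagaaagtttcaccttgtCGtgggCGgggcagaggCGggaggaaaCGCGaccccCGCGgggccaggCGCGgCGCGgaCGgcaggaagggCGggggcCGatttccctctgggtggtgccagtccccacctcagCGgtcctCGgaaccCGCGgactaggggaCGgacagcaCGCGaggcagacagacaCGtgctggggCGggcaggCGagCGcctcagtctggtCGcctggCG
RYK: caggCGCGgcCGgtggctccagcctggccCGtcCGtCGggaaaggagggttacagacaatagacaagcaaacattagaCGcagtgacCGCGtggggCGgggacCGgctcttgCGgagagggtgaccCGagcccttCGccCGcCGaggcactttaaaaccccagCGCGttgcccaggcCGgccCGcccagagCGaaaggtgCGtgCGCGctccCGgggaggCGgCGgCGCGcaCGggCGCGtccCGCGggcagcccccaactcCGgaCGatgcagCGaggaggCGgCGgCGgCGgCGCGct
DDR2: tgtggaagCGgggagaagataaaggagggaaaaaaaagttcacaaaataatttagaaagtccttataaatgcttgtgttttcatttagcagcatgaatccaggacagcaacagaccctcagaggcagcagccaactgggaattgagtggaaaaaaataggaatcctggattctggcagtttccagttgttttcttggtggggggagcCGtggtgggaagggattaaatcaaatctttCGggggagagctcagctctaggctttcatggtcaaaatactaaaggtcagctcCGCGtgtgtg
ROS1: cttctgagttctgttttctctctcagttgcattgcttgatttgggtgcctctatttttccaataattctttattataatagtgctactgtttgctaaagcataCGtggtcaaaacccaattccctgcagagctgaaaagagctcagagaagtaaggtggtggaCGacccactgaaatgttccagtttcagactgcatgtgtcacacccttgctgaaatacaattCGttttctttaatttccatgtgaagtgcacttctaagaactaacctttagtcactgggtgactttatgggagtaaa

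MET and MST1R, which encodes RON, form the family of hepatocyte growth factor (HGF) type receptors, and both were above background in every line. MET had an intensity of 1819 in HT-29, 629 in MDA-MB-436 and 849 in MCF10A. It was brightest in HT-29, by 2.89-fold over MDA-MB-436 and 2.14-fold over MCF10A, under the 4-fold line. MST1R, whose ligand is macrophage stimulating protein, was at 277 in HT-29, 39 in MDA-MB-436 and 104 in MCF10A. The 3 lines kept the order of HT-29 above MCF10A above MDA-MB-436 for both genes, and HT-29 exceeded MDA-MB-436 7.09-fold for MST1R.

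The EPH receptors, the largest receptor family, bind ephrins on neighbouring cells. EPHA2, the main EPH receptor of many epithelia, was at 972 in HT-29, 336 in MDA-MB-436 and 489 in MCF10A. EPHB4, the receptor of ephrin-B2, was at 521, 341 and 471 in the same lines. Both were well above background everywhere and lowest in MDA-MB-436, and HT-29 exceeded that line by 2.89-fold for EPHA2 and 1.53-fold for EPHB4. EPHA1 was at 204 in HT-29, 31.3 in MDA-MB-436, just above background, and 63.7 in MCF10A. Its value in HT-29 was 6.52-fold that in MDA-MB-436 and 3.21-fold that in MCF10A. EPHB3, known from the crypt base of the mouse intestine, was at 107 in HT-29, 31.9 in MDA-MB-436 and 127 in MCF10A. MDA-MB-436 had a 3.98-fold lower value than MCF10A, just short of 4-fold, and with quantile normalization or median centring its log2 difference of -2.10 passed that line.

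EPHA4, a receptor best known from axon guidance, ran the other way, at 21 in HT-29, 152 in MDA-MB-436 and 24.7 in MCF10A. It was above background in MDA-MB-436 alone, at least 5.10-fold higher there than in either other line. EPHA7 was at 9.64 in HT-29, 32.8 in MDA-MB-436 and 6.57 in MCF10A. It passed 4-fold between the mammary lines by measured values, 4.99-fold, but its bound against background was only 1.10-fold. EPHB6, whose kinase domain lacks activity, stayed near background at 31.4 in HT-29, 35.5 in MDA-MB-436 and 26.8 in MCF10A. EPHA3, EPHA5 and EPHB1 were under background everywhere, at no more than 28.2, 17.3 and 28.9, so that no order between lines can be read for them. Of the 7 EPH genes above background in some line, EPHA1, EPHA2, EPHB3 and EPHB4 were thus lowest in MDA-MB-436, EPHA4 and EPHA7 were above background there alone, and for EPHB6 HT-29 and MDA-MB-436 differed by only 1.13-fold.

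The discoidin domain receptors bind collagen rather than a soluble ligand, DDR1 mainly in epithelium and DDR2 mainly in mesenchyme. DDR1 was at 382 in HT-29, 171 in MDA-MB-436 and 363 in MCF10A. DDR2 was at 38.7 in HT-29, 1103 in MDA-MB-436 and 23.8 in MCF10A. DDR2 was bright in MDA-MB-436 only, where it exceeded MCF10A at least 36.9-fold, and HT-29 was 28.5-fold lower than MDA-MB-436. DDR1 was lowest in MDA-MB-436, by 2.13-fold against MCF10A, and HT-29 was 2.23-fold higher than it. DDR2 was the receptor gene with the largest difference in either comparison that involves MDA-MB-436.

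The TAM receptors bind GAS6 and protein S and are known for the clearance of dying cells. AXL was at 44.3 in HT-29, 355 in MDA-MB-436 and 246 in MCF10A. It was lowest in HT-29 but above background, 8.02-fold lower there than in MDA-MB-436 and 5.55-fold lower than in MCF10A. MERTK was at 60.3 in HT-29, 70.9 in MDA-MB-436 and 11.9 in MCF10A. Its values in the cancer lines were above background but under the highest olfactory receptor value, and at least 2.02-fold and 2.37-fold higher than in MCF10A, where measured folds were 5.07 and 5.96. AXL was thus lowest in HT-29 and MERTK in MCF10A.

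All 4 FGF receptor genes were above background in MDA-MB-436 and MCF10A, and 3 of 4 in HT-29. FGFR1, the FGF receptor of most mesenchymal cells, was at 27.4 in HT-29, 245 in MDA-MB-436 and 80.9 in MCF10A. FGFR2, whose epithelial splice form binds FGF7 and FGF10, was at 121, 57.6 and 31.8 in the same lines. FGFR3 was at 201 in HT-29, 72.9 in MDA-MB-436 and 306 in MCF10A. The family thus had a different brightest line for different members, MDA-MB-436 for FGFR1, HT-29 for FGFR2 and MCF10A for FGFR3. FGFR1 was lower in HT-29 than in MDA-MB-436 by at least 8.17-fold, and MDA-MB-436 had a 4.20-fold lower FGFR3 value than MCF10A. For FGFR2, HT-29 was 3.79-fold above MCF10A. FGFR4, a receptor of FGF19, was at 72.7 in HT-29, 50.4 in MDA-MB-436 and 35.5 in MCF10A, all under the highest olfactory receptor value. Splice forms, which set the ligands of FGFR1 to FGFR3, cannot be read from values per cluster.

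The receptor genes of insulin and insulin-like growth factors were above background in all 3 lines. IGF1R was at 244 in HT-29, 349 in MDA-MB-436 and 346 in MCF10A, and INSR at 53.3, 39.4 and 89.4, all under the highest olfactory receptor value. IGF1R varied by at most 1.43-fold, and the sign of its difference between the mammary lines turned with median centring. MDA-MB-436 had 2.27-fold less INSR signal than MCF10A, the line whose medium held insulin.

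RYK, ROR1, ROR2 and PTK7 take part in WNT signalling, mostly the branch that does not use beta-catenin, and PTK7 and RYK are held to lack kinase activity. RYK was at 809 in HT-29, 965 in MDA-MB-436 and 1077 in MCF10A. ROR1 was at 192, 211 and 233 in the same lines, and PTK7 at 116, 119 and 108. These 3 genes varied little between lines, by at most 1.33-fold for RYK, 1.21-fold for ROR1 and 1.11-fold for PTK7. Signs turned with scaling for RYK between the mammary lines and for PTK7 between HT-29 and MDA-MB-436. ROR2 differed from them, at 18 in HT-29, 49.2 in MDA-MB-436 and 17.8 in MCF10A. It was above background in MDA-MB-436 alone, by a bound of at least 1.65-fold over either other line.

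ROS1, a receptor known in cancer mostly through gene fusions, was at 6.03 in HT-29, 6.19 in MDA-MB-436 and 128 in MCF10A. Only the MCF10A array was above background, and above the highest olfactory receptor value too. Both cancer lines were at least 4.28-fold lower than MCF10A, and by measured intensities HT-29 was 21.2-fold and MDA-MB-436 20.7-fold lower. ALK and LTK, its relatives, were under background in all lines. ALK came closest, at 23.9 in HT-29, 29.5 in MDA-MB-436 and 19.2 in MCF10A. The neurotrophin receptor gene NTRK2 was at 10.9, 31 and 9.28 in these lines, so that its value in MDA-MB-436 passed background by 1.04-fold only.

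The receptors typical of endothelium, blood and stroma were dim. PDGFRB, KIT, CSF1R, FLT3, FLT1, KDR, TEK and TIE1 were all under background on every array, between 3.07 for FLT3 in MCF10A and 26.9 for KDR in MCF10A. FLT4, the receptor of VEGF-C on lymphatic endothelium, was the exception, at 31.3 in HT-29, 78.7 in MDA-MB-436 and 26.3 in MCF10A. MDA-MB-436 exceeded MCF10A at least 2.63-fold, HT-29 was 2.51-fold lower than MDA-MB-436, and all values were under the highest olfactory receptor value. Of 9 measured endothelial marker genes 3 were above background on each array, with summed intensities of 402 in HT-29, 239 in MDA-MB-436 and 235 in MCF10A. The defining markers PECAM1, CDH5 and VWF were among those under background on every array. Above it on every array were CLDN5, at 65.8 in HT-29, 61.3 in MDA-MB-436 and 49.9 in MCF10A, and SOX18, at 49.2, 52.6 and 82.6. ROBO4 was just above it in the mammary lines, at 34.5 in MDA-MB-436 and 36.9 in MCF10A. ESAM, which encodes an adhesion molecule of endothelial junctions, was at 206 in HT-29, 23.8 in MDA-MB-436 and 14 in MCF10A. HT-29 was at least 6.88-fold above either mammary line for ESAM, and the part of this in the receptor values was not tested. Of 10 leukocyte markers 2 were above background on each array, CD68 and CD14, which are not confined to leukocytes, while PTPRC was at 3.72 in HT-29, 4.16 in MDA-MB-436 and 3.05 in MCF10A. The leukocyte markers summed to 456 in HT-29, 1404 in MDA-MB-436 and 534 in MCF10A, most of it from CD68 at 314, 1203 and 294. Of 10 fibroblast and pericyte markers 2 were above background in HT-29, 4 in MDA-MB-436 and 2 in MCF10A, with sums of 179, 242 and 219. COL1A1 was above it on every array, at 51.8, 57.2 and 50.9 in these lines. FAP was at 6.35, 50.8 and 48.8, and passed 4-fold downward in HT-29 by measured values. Its bounds were only 1.70-fold against MDA-MB-436 and 1.63-fold against MCF10A. None of 3 mast cell markers was above background. Of 6 neural and glial markers 3 were above background on each array, and they summed to 167 in HT-29, 386 in MDA-MB-436 and 147 in MCF10A, with the adhesion gene NCAM1 at 15.9, 229 and 18.

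**Figure D3:**
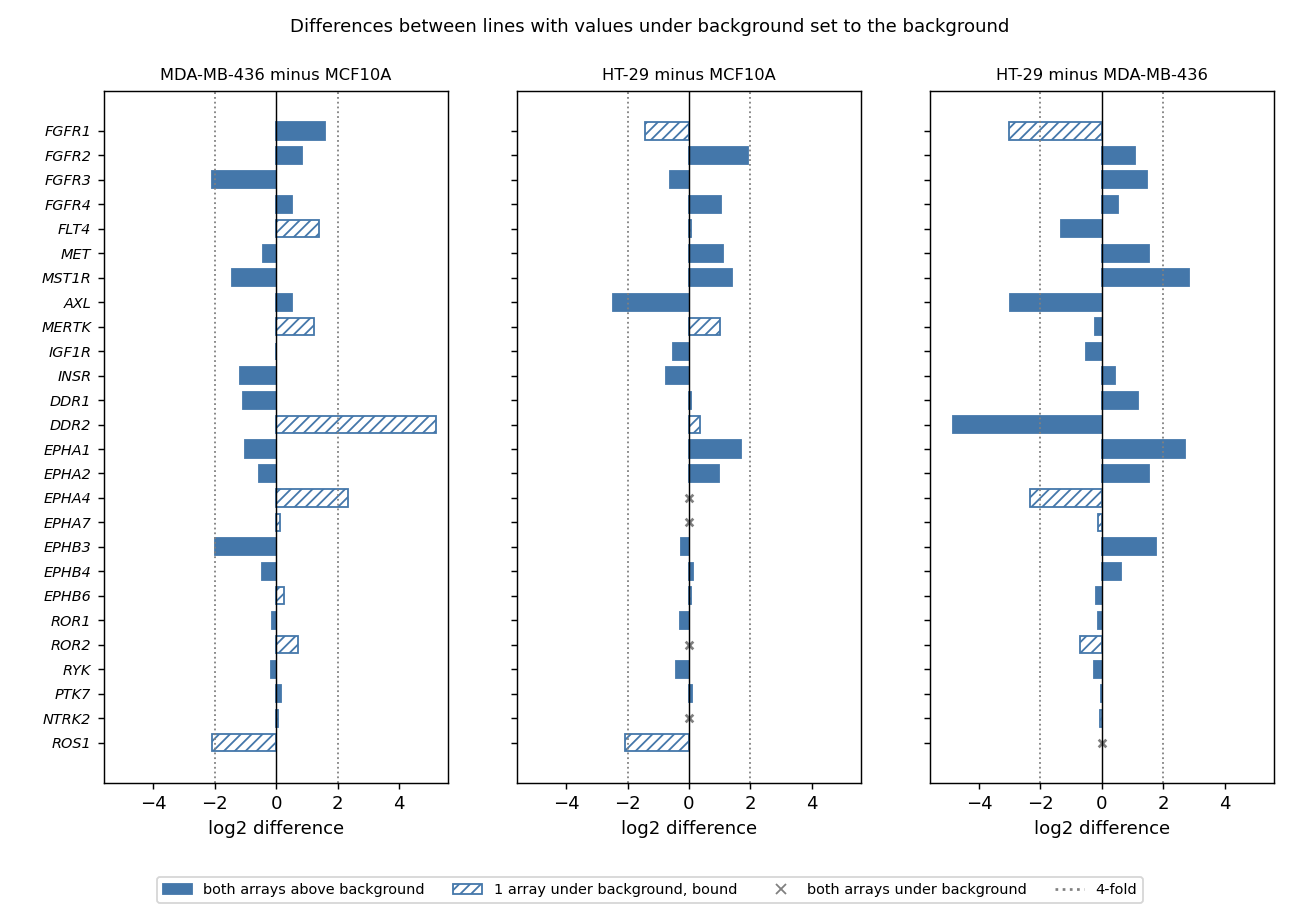
Log2 differences of the 26 receptor genes above background in at least 1 line, with values under background set to the background, in a panel for each pair of lines. Filled bars have both arrays above background, hatched bars have 1 under it and are bounds, crosses have both under it, and dotted lines mark 4-fold; the DDR2 bar stands out on the MDA-MB-436 side of both panels that hold that line, and AXL and FGFR1 point to the mammary lines in the panels with HT-29.

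Counted over all families, 4 of the 41 receptor genes passed 4-fold upward in MDA-MB-436 relative to MCF10A, namely DDR2, EPHA4, MERTK and EPHA7, and 2 were lower, ROS1 and FGFR3. Among all genes 3.65% were higher by the same rule and 2.01% lower. With values under background set to it, MERTK and EPHA7 fell short, which left 2 higher (2.13% of all genes) and 2 lower (1.7% of all genes). The median log2 difference of the 41 genes was 0.21, against 0.018 over all genes. Relative to MCF10A, HT-29 had 1 receptor gene past 4-fold upward, MERTK, and 2 downward, AXL and ROS1. Over all genes 4.34% were higher and 3.5% lower. With the background floor 0 receptor genes were higher (3.42% of all genes) and 2 lower (2.76% of all genes). The median was 0.17, against 0.11 over all genes. HT-29 set against MDA-MB-436 had 2 receptor genes higher, MST1R and EPHA1, and 4 lower, DDR2, FGFR1, AXL and EPHA4, where 4.21% of all genes were higher and 4.68% lower. The floor left these counts at 2 higher (3.59% of all genes) and 4 lower (3.15% of all genes). The median was -0.13, against 0.076 over all genes. These counts are of few genes, and the comparisons share arrays. With the background floor the medians of the receptor genes and of all genes were 0 in each comparison.

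Of the 10 receptor genes past 4-fold, 5 passed it in 1 comparison and 5 in 2. The 3 measured genes on each side of each of them, in the order of the RefSeq annotation, were looked up to see whether a stretch of neighbours moved with the receptor. These were 60 distinct genes, and the 15 cases of a receptor gene and a comparison gave 90 neighbour values, since those of 5 receptors entered 2 comparisons. In the direction of the receptor 0 of the 90 passed 4-fold, where the shares of all genes given above lay between 2.01% and 4.68% by comparison and direction. A neighbour under background in the line where the receptor was brighter could not be called, however. This held for all 6 neighbours of ROS1, at no more than 26.8 in MCF10A, and for INHA, PAX3 and CCDC140 beside EPHA4, among others. The count of 0 thus cannot show whether a stretch moved with such a receptor. In the opposite direction 4 passed, from 2 genes. CYP2S1, beside AXL, was at 355 in HT-29, 70.9 in MDA-MB-436 and 38.3 in MCF10A, highest in the line in which AXL was lowest. SGPP2, beside EPHA4, was at 497 in HT-29, 45.9 in MDA-MB-436 and 259 in MCF10A, lowest in the line in which EPHA4 was highest.

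The ligands, co-receptors and proximal signal proteins were read from lists of their own. For all lists below, the shares of all genes above background were 66.6% in HT-29, 68.8% in MDA-MB-436 and 65% in MCF10A. Past 4-fold, 3.65% of all genes were higher and 2.01% lower in MDA-MB-436 relative to MCF10A. These shares were 4.34% and 3.5% in HT-29 relative to MCF10A, and 4.21% and 4.68% in HT-29 relative to MDA-MB-436. Of 67 ligand genes listed, 54 were measured, and 27 were above background in HT-29, 30 in MDA-MB-436 and 24 in MCF10A. In at least 1 line 32 were above it. Relative to MCF10A, 5 ligands passed 4-fold upward in MDA-MB-436 and 1 downward, and the list median was 0.16. MDK, which encodes midkine, a ligand of ALK among others, had an intensity of 1668 in MDA-MB-436 cells against 27.1 in MCF10A, at least 55.8-fold higher. CSF1, the ligand of CSF1R, was 6.33-fold higher at 446 against 70.4, although CSF1R itself was under background in every line. FGF5 was at 16.3 in HT-29, 96.5 in MDA-MB-436 and 21.4 in MCF10A, and its bound of 3.23-fold for MDA-MB-436 over either other line fell short of 4-fold. The ligand that was lower in MDA-MB-436 was the ephrin gene EFNB1, 4.09-fold below MCF10A. Against MCF10A, HT-29 had 3 ligands past 4-fold upward and 1 downward, and the median was 0.26. VEGFA, the main endothelial growth factor, was 6.73-fold higher at 1601 against 238, and EFNA2, an ephrin, 7.13-fold higher at 508 against 71.2. MDK reached 857 in HT-29, exceeding MCF10A at least 28.6-fold. HT-29 set against MDA-MB-436 had 2 ligands higher and 3 lower, with a median of -0.12. With the background floor the ligand median was 0 in each comparison. EFNA2 was 8.20-fold higher and EFNB1 6.93-fold higher, at 571 in HT-29 against 82.5 in MDA-MB-436.

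**Figure D4:**
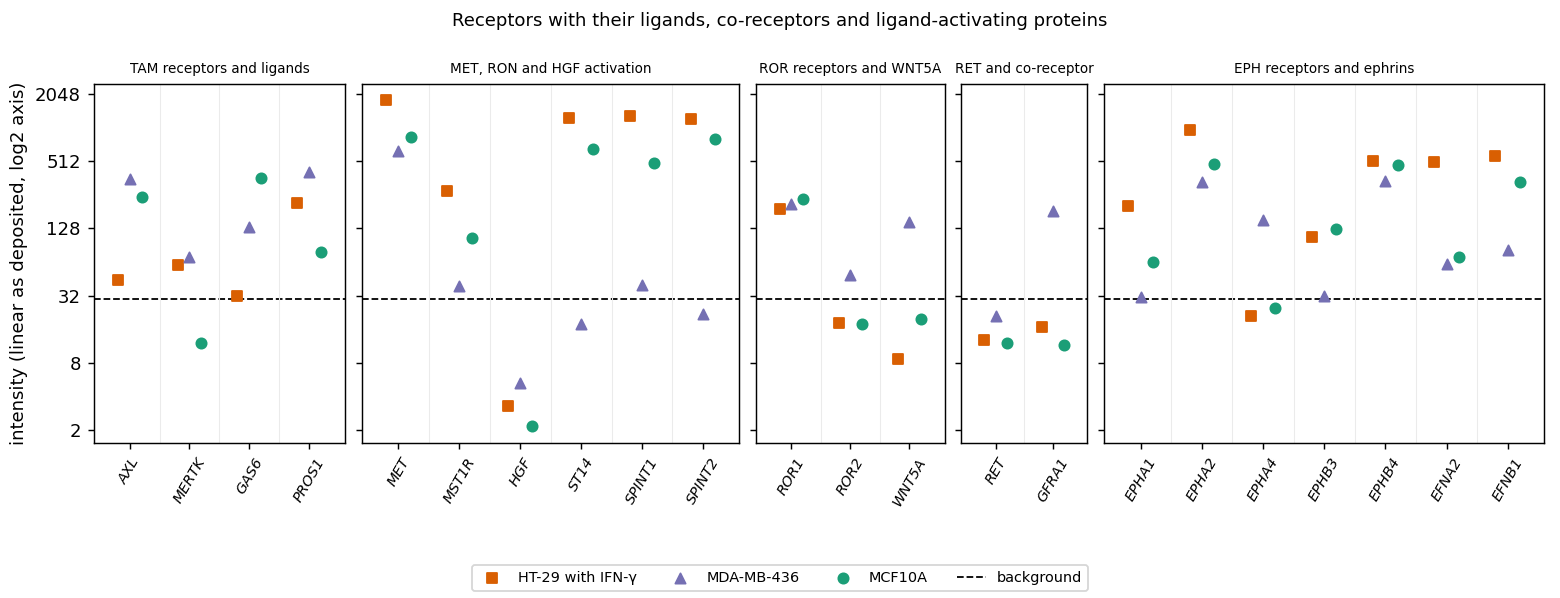
Intensity (log2 axis, linear values as deposited) of receptor genes beside genes of their ligands, co-receptors and ligand-activating proteins, with squares for HT-29 with IFN-γ, triangles for MDA-MB-436 and circles for MCF10A, and the background as a dashed line. ST14, SPINT1 and SPINT2 lie at 493 or more in HT-29 and MCF10A and at 39.6 or less in MDA-MB-436, and HGF lies under background in every line.

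Some receptors could be read beside their ligands within a line. GAS6, the ligand of the TAM receptors, was at 31.6 in HT-29, 133 in MDA-MB-436 and 364 in MCF10A. GAS6 was thus lowest in HT-29, as AXL was, 4.21-fold lower than in MDA-MB-436 and 11.5-fold lower than in MCF10A. PROS1, which encodes protein S, was at 217 in HT-29, 414 in MDA-MB-436 and 78.9 in MCF10A. It was lowest in the line in which MERTK was under background, and MDA-MB-436 was 5.24-fold above that line. Other pairings ran apart. GAS6 was highest in MCF10A, where MERTK was under background. It was 2.73-fold lower in MDA-MB-436 than in MCF10A, whereas AXL was 1.45-fold higher there. WNT5A, a ligand of ROR2, was at 8.71 in HT-29, 146 in MDA-MB-436 and 19.7 in MCF10A. Like ROR2 it was above background in MDA-MB-436 alone, at least 4.87-fold higher than in either other line. With 3 arrays, such parallels describe these lines and carry no test.

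HGF itself was under background in every line, at 3.29 in HT-29, 5.3 in MDA-MB-436 and 2.15 in MCF10A. Of the listed genes that activate it or hold that step in check, ST14, SPINT1 and SPINT2 differed widely between lines. HPN and HGFAC, which encode other activating proteases, stayed under or near background. HPN was at 25.8 in HT-29, 24.7 in MDA-MB-436 and 21 in MCF10A, and HGFAC at 33, 29.9 and 29.6. ST14, which encodes the protease matriptase, was at 1254 in HT-29, 17.9 in MDA-MB-436 and 663 in MCF10A. SPINT1 and SPINT2 encode the HGF activator inhibitors, and SPINT1 was at 1297, 39.6 and 493 in the same lines. SPINT2 was at 1229 in HT-29, 21.7 in MDA-MB-436 and 807 in MCF10A. All 3 were bright in HT-29 and MCF10A and dim in MDA-MB-436, at least 22.2-fold, 12.5-fold and at least 27-fold lower there than in MCF10A. For MET itself MDA-MB-436 was only 1.35-fold below MCF10A. TIMP3, which encodes an inhibitor of the proteases that shed receptors, was at 20.5 in HT-29, 143 in MDA-MB-436 and 1354 in MCF10A, so that against MCF10A it was lower by at least 45.3-fold for HT-29 and by 9.46-fold for MDA-MB-436. Of the 13 measured shedding and cleavage genes, MDA-MB-436 had 1 past 4-fold upward and 4 downward relative to MCF10A (median -0.24). The 1 upward was PCSK5, which encodes a proprotein convertase, with 120 in MDA-MB-436 cells against 20.3 in MCF10A cells, at least 4.02-fold higher. HT-29 had 0 upward and 1 downward relative to MCF10A (median 0.28, or 0.14 with the background floor). Relative to MDA-MB-436 it had 3 upward and 1 downward (median 0.10).

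Of 9 co-receptor genes measured, 3 were above background in HT-29, 5 in MDA-MB-436 and 4 in MCF10A. NRP2, a neuropilin that binds VEGF with its receptors, was at 10.7 in HT-29, 38 in MDA-MB-436 and 244 in MCF10A. Against MCF10A, HT-29 was lower by at least 8.16-fold and MDA-MB-436 by 6.42-fold. GFRA1, which presents GDNF to RET, was at 16.5 in HT-29, 182 in MDA-MB-436 and 11.6 in MCF10A. Its value in MDA-MB-436 was at least 6.09-fold above that of either other line, while RET stayed under background at 12.7, 20.9 and 12 in HT-29, MDA-MB-436 and MCF10A. No other co-receptor passed 4-fold in any comparison.

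Of 25 measured adaptors and proximal signal proteins, 20 were above background in HT-29, 22 in MDA-MB-436 and 21 in MCF10A. GRB2 was at 558 in HT-29, 334 in MDA-MB-436 and 477 in MCF10A, and SHC1 at 1231, 1223 and 1729. These general adaptors varied by less than 2-fold, whereas SHC3, a relative of SHC1 known from neurons, was at 22.3, 478 and 25.9. MDA-MB-436 exceeded either other line at least 16-fold for SHC3. PLCG1, the phospholipase C that binds activated receptors, was at 75.3 in HT-29, 309 in MDA-MB-436 and 381 in MCF10A, and HT-29 was 4.11-fold below MDA-MB-436 and 5.05-fold below MCF10A. SRC, the founding member of its kinase family, was at 435 in HT-29, 76.3 in MDA-MB-436 and 144 in MCF10A, and HT-29 was 5.69-fold above MDA-MB-436. PIK3R1, a regulatory subunit of phosphoinositide 3-kinase, had 178 in MDA-MB-436 cells against 940 in MCF10A cells, 5.29-fold lower. Over the list, MDA-MB-436 had 1 gene past 4-fold upward and 1 downward relative to MCF10A (median 0.036). HT-29 had 0 upward and 1 downward relative to MCF10A (median 0.22), and 2 upward and 3 downward relative to MDA-MB-436 (median 0.13). With the background floor GRB14 and VAV3, which are among these 5, fell short, and the medians of the list were 0, 0 and 0.086 in the same order. GRB14, an adaptor that inhibits the insulin receptor, had 111 in HT-29 against 16.2 in MDA-MB-436, at least 3.73-fold higher, and VAV3 had 5.19 against 35.9, lower by at least 1.20-fold.

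Of 12 measured negative regulators, 12 were above background in HT-29, 11 in MDA-MB-436 and 12 in MCF10A. CBL, the ubiquitin ligase that marks active receptors for breakdown, was at 466 in HT-29, 253 in MDA-MB-436 and 436 in MCF10A. Its epithelial relative CBLC was at 201, 24.2 and 84.5 in these lines, and HT-29 exceeded MDA-MB-436 at least 6.71-fold. LRIG1 encodes a membrane protein that dampens receptor signals. LRIG1 and its relative LRIG3 ran in opposite directions between the mammary lines. LRIG1 had 472 in MDA-MB-436 cells against 102 in MCF10A cells, 4.64-fold higher, and LRIG3 had 59.8 against 275, 4.59-fold lower. The list had no gene past 4-fold in HT-29 against MCF10A but a median of 0.92. Its median was -0.0065 in MDA-MB-436 against MCF10A and 0.68 in HT-29 against MDA-MB-436, with 1 gene higher and 0 lower.

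Of 10 measured receptor tyrosine kinases that were not on the list, 7 were above background in HT-29, 6 in MDA-MB-436 and 5 in MCF10A, and relative to MCF10A, HT-29 had ERBB3 and STYK1 past 4-fold upward. ERBB3 was at 918 in HT-29, 15.5 in MDA-MB-436 and 48.5 in MCF10A, with HT-29 at least 30.7-fold above MDA-MB-436 and 18.9-fold above MCF10A. STYK1 was at 72.5, 30.9 and 11.4 in these lines, and its bound for HT-29 over MCF10A was only 2.42-fold. Non-receptor tyrosine kinases, which lack a ligand-binding part, were above background in 23 of 29 cases in HT-29, 23 in MDA-MB-436 and 20 in MCF10A. LYN, a SRC family kinase, was at 53.8 in HT-29, 585 in MDA-MB-436 and 558 in MCF10A. LYN was thus lowest in HT-29, 10.9-fold below MDA-MB-436 and 10.4-fold below MCF10A. FYN, of the same family, had 372 in HT-29 against 43.4 in MCF10A, 8.58-fold higher. JAK2, a kinase of the IFN-γ receptor among others, had 405 against 56.5 in these lines, 7.15-fold higher. HT-29 thus had 2 of the 29 past 4-fold upward and 1 downward relative to MCF10A. Relative to MDA-MB-436 it had 3 upward and 1 downward, LYN. The 3 upward were SRC, given above, FRK at 182 in HT-29 against 30.3 in MDA-MB-436, 6.02-fold higher, and SYK at 148 against 20.1, at least 4.94-fold higher. Relative to MCF10A, MDA-MB-436 had 1 of the 29 past 4-fold upward and 0 downward. This was TEC, with 95.6 in MDA-MB-436 cells against 22.5 in MCF10A cells, and with the background floor it fell short, at 3.19-fold.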

How the data were processed

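Total RNA of 3 cell lines was measured on exon arrays, 1 array per line. The deposited table gives intensity, on a linear scale, for 18708 transcript clusters. How the authors summarised, background-corrected or normalized them is not given in the sources used here, and the submitters' processing notes list only the build hg19. The number of arrays limits the precision.

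Names of clusters came from the platform annotation, and symbols were updated by gene identifier against RefSeq GRCh38.p14, and 14705 of 14733 clusters with 1 symbol matched. The 2875 clusters with several symbols were not named. Related genes can share probe signal. Log2 differences were taken on the values as deposited. Without replicates no test was made. The counting step was checked on simulated data, with 8-fold changes put only into genes well above background. That check does not bear on calls near or under background.

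The receptor genes and lists were chosen with earlier results of these data known. Every receptor gene above background is named, and up to 4 genes per pathway list and comparison, taken among those past 4-fold in the order of their difference after the background floor. EFNB1 between the mammary lines, FGF5, PCSK5, VAV3, CYP2S1, SGPP2, ESAM, CBL, GRB2, SHC1, HGF, HPN and HGFAC were chosen after their values were seen. So were the genes shown beside receptors and the printed windows. Alternatives covered scaling, the background, the fold and the choice of cluster. Computation used Python 3.11.15 with pandas 2.3.3, numpy 2.4.6 and, for the figures, matplotlib 3.10.9.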

Additional observations from a re-analysis of the deposited data

How the results depend on the processing

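The counts of receptor genes past 4-fold and above background were recomputed with 9 alternatives. Quantile normalization, median centring, dropping the background filter and taking the median of a gene's clusters kept every count within 1.5 times. Quantile normalization nevertheless brought the lines together, with 20 genes above background in HT-29, 22 in MDA-MB-436 and 21 in MCF10A. The shares of all genes were then 67.2%, 67.5% and 67.2%. Centring moved the median of all genes by -0.11 on the log2 scale in MDA-MB-436 minus MCF10A, by -0.014 when HT-29 was set against MCF10A and by 0.094 when it was set against MDA-MB-436. The count of genes higher in MDA-MB-436 relative to MCF10A, 4 as reported, was 2 with the highest olfactory receptor value as background (2.36% of all genes). It was 2 with values under background set to it (2.13%), 8 at 2-fold (8.76%) and 1 at 8-fold (1.67%). The count lower in that comparison, 2 as reported, was 7 at 2-fold (8.74% of all genes) and 1 at 8-fold (0.916%). The count higher in HT-29 than in MCF10A, 1 as reported, was 0 with the 99th percentile as background (3.97% of all genes). It was 0 with the highest olfactory receptor value (3.6%), 0 with the background floor (3.42%), 6 at 2-fold (10.2%) and 0 at 8-fold (2.3%). The count lower, 2 as reported, was 1 at 8-fold (1.64%). In HT-29 minus MDA-MB-436, the 2 higher became 8 at 2-fold (11.5% of all genes) and 0 at 8-fold (2.03%). The 4 lower became 8 at 2-fold (11% of all genes). At the 99th percentile 14 genes were above background in HT-29, 15 in MDA-MB-436 and 16 in MCF10A (55.1%, 56.7% and 54.5% of all genes). At the highest olfactory receptor value they were 13, 12 and 13 (46.9%, 47.2% and 46.9% of all genes). The larger count of MDA-MB-436 was thus not kept with these backgrounds. The genes that fell short of 4-fold under some alternative were MERTK and EPHA7, and EPHA7 had a log2 difference of 1.99 after quantile normalization. EPHB3 gained the call between the mammary lines, at -2.10 after quantile normalization and after median centring, which made the count lower in MDA-MB-436 3. No receptor gene past 4-fold changed sign under the alternatives run. No paired analysis was possible because each line had 1 array. Above background in some line but under the highest olfactory receptor value in all were 8 genes, FGFR4, FLT4, MERTK, INSR, EPHA7, EPHB6, ROR2 and NTRK2, whose values nearness to background limits.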
